A study of Kluyveromyces lactis with 17 samples.

Results

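The transcriptomes of 2 strains of the yeast Kluyveromyces lactis were compared after growth with scarce nicotinic acid, at 15 µg/L. The 4 libraries used for this comparison, of 17 in all, were the pairs numbered 7 and 8 of each strain at that level. WT is strain LRY2992 (MATa SIR2 hmlΔ hmrΔ) and sir2Δ is strain LRY2993 (MATα sir2Δ hmlΔ hmrΔ). Both strains lack the silent mating-type cassettes HML and HMR. All cultures spent the night in a minimal medium with 20 g/L glucose and 400 µg/L nicotinic acid as the only niacin, and then 4 h at the final level, at 30 °C. The 2 strains were also grown at 45, 135 and 400 µg/L, and the 5 libraries at 400 µg/L (3 of WT, 2 of sir2Δ) serve below as the comparison with ample vitamin. Per the series text the 2 libraries of a group are independent biological replicates, and each genotype is represented by 1 strain. The strains differ in SIR2 and in mating type at once, so every difference below is one of both together, and their parts cannot be told apart.

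Sir2 is a protein deacetylase that consumes NAD+ and that keeps chromatin silent at chromosome ends and mating-type cassettes in budding yeasts. K. lactis lacks most of the pathway that makes NAD+ from tryptophan, so its NAD+ comes largely from nicotinic acid taken up by the permease Tna1 and converted by the phosphoribosyltransferase Npt1. A wild-type cell short of the vitamin still carries Sir2 but may lack its substrate, whereas sir2Δ cells lack the enzyme at any level. The comparison at 15 µg/L therefore asks which differences between the strains remain when nicotinic acid is scarce.

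The 4 libraries held 32240203 to 33760158 reads in genes, with 6.08% to 7.60% in ribosomal RNA. Levels are given as CPM, read counts scaled to the size of each library with TMM factors. Replicates had a Pearson correlation of log2 CPM across genes of 0.995 in WT and 0.996 in sir2Δ, and neither pair was a copy within sampling noise. On the first principal component of all 16 columns, with 67.4% of the variance, the sir2Δ libraries at 15 µg/L lay at -17.1 and -16.9 and the WT libraries at 8.74 and 8.09, while the other WT columns lay at 20.4 to 26.9. At 400 µg/L, WT library 1 stood apart, with correlations of 0.960 to 0.965 with the other WT libraries, which had 0.997 between them. It was summed with its repeat 1R, and values at 400 µg/L are also given from 1R alone where they matter. The labels mark sir2Δ library 8 at 15 µg/L and WT libraries 1 and 1R as resubmitted.

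The labels were checked first. The deleted gene, KLLA0_F14663g, which is K. lactis SIR2 from prior knowledge since the reference table gives it no symbol, had 0.935 and 0.687 CPM in sir2Δ and 144 and 145 CPM in WT. Its 51 reads in sir2Δ came to 0.558% of the WT level (exact 95% interval 0.415% to 0.734%, counting error only). The α regulators separated the strains in the other direction. HMLALPHA1 had 78.4 and 77.3 CPM in sir2Δ and 0.249 and 0.510 CPM in WT, and HMLALPHA2 had 23.3 and 23.2 CPM in sir2Δ and 0.124 and 0.255 CPM in WT. KLLA0_C00396g, which the table leaves without a symbol, had 88.1 and 91.5 CPM in sir2Δ and 0.404 and 0.369 CPM in WT. In each case the strains were far apart and the replicates close. The labels give HML as deleted in both strains, and sir2Δ as MATα with WT as MATa. These reads, assigned to the HML copies by the authors' counting, thus need not come from that locus, and their origin was not tested.

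Beside SIR2, the genes with the fewest reads in sir2Δ relative to WT were 2 pairs whose members had nearly equal levels. KLLA0_C03157g and KLLA0_B14575g had 3216 and 3346 reads in the WT libraries together and 3 and 5 reads in sir2Δ, which is 0.0992% (exact 95% interval 0.0204% to 0.290%) and 0.159% (0.0516% to 0.371%) of WT. KLLA0_C03135g and KLLA0_B14553g had 1410 and 1513 reads in WT and 7 and 3 in sir2Δ. The members of a pair have equal coding lengths in the table and may take each other's reads, so single members are uncertain. The table names none of them.

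Beyond these, the strains still differed at 15 µg/L, in fewer genes and mostly by smaller amounts than with ample vitamin. Of 5224 genes tested, 768 were higher in sir2Δ and 837 lower, by edgeR's quasi-likelihood test at an adjusted p under 0.05. That is 30.7% of the genes, 14.7% higher and 16.02% lower. The called genes had median log2 fold changes (sir2Δ over WT, as throughout) of 0.44 and -0.50, and only 77 of the higher and 56 of the lower genes differed by 1 log2 unit or more. Of the 1605 called genes, 1604 had sir2Δ and WT libraries that did not overlap, and HSP42, singled out after its values were seen, was the exception. Over all 5224 genes the libraries did not overlap for 1763 with sir2Δ higher and 1789 with sir2Δ lower, so non-overlap was common among uncalled genes too. Without WT library 7 the count of calls was 1044, and without sir2Δ library 8 it was 1041.

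At 400 µg/L 2337 genes were called (44.7%), 1174 higher (22.5%) and 1163 lower (22.3%). Among them 236 higher and 243 lower genes differed by 1 log2 unit or more. The contrasts at 15 and 400 µg/L compare different libraries, but they come from the same fit and share its scaling and estimates of spread. In all, 1110 genes were called in the same direction at both levels, making up 69.2% of the 1605 calls and 47.5% of the 2337. The change of the strain difference was tested as an interaction, the difference at 15 minus that at 400 µg/L. It was called for 899 genes (17.2%), positive in 392 (7.50%) and negative in 507 (9.71%), and for 1198 with library 1R alone. The counts of list members at 400 µg/L and in the interaction, given below, are to be read beside these shares of all genes. Upper-quartile scaling moved the share of higher calls from 50.2% to 34.7% at 400 µg/L and the share of positive interactions from 43.6% to 61.2%, with a shift of the median of all genes to -0.11 and 0.10. At 15 µg/L it moved the share only from 47.9% to 45.7%.

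Most of the tested changes were a narrowing. The strain difference was smaller at 15 µg/L for 673 of the 899 genes, larger for 143, and opposite in direction with a call at both levels for 71. The 236 genes higher by at least 1 log2 unit at 400 µg/L had a median of 1.90 there and of 0.57 at 15 µg/L, and 174 of them narrowed. The 243 genes lower by that much had medians of -1.47 and -0.65, and 184 narrowed. Since these genes were chosen by their values at 400 µg/L, a smaller value at the other level is in part what the choice leads to.

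**Figure D1:**
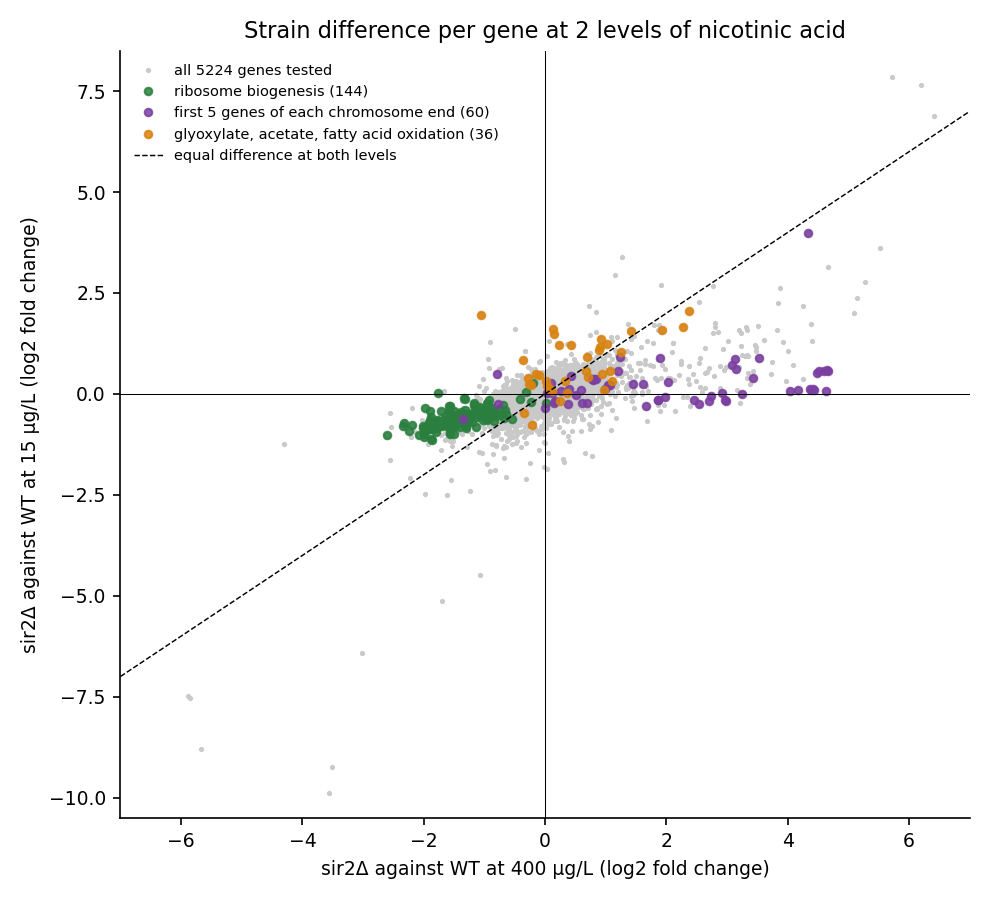
Log2 fold change of sir2Δ over WT for each of 5224 genes at 400 µg/L (horizontal axis) and at 15 µg/L (vertical axis), with 3 gene lists in colour and a dashed line of equal difference. Many of the first 5 genes of each chromosome end lie far to the right at heights near 0, most ribosome biogenesis genes lie below 0 at both levels but above the line, and several glyoxylate, acetate and fatty acid genes lie above the line.

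The genes that bring nicotinic acid into NAD+ synthesis no longer stood higher in sir2Δ. TNA1, the nicotinic acid permease, had 2484 and 2513 CPM in sir2Δ and 3331 and 3375 CPM in WT. Its fold change was -0.42 ± 0.09 (edgeR adjusted p = 0.00198), against 2.15 ± 0.09 at 400 µg/L, and the interaction was -2.57 ± 0.13 (adjusted p = 4.4e-10). Both sir2Δ libraries were thus below both WT libraries, the reverse of the order at 400 µg/L. The call at 15 µg/L was lost with WT libraries 1 and 1R as separate columns (edgeR adjusted p = 0.0737). NPT1, which makes nicotinic acid mononucleotide, had 1103 and 1186 CPM in sir2Δ and 1193 and 1229 CPM in WT. The strains did not overlap but nearly touched, and the fold change of -0.08 ± 0.08 did not pass the test (edgeR adjusted p = 0.481), while its interaction of -2.35 ± 0.12 did (adjusted p = 3.6e-10).

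Other genes of NAD salvage kept a difference. Of the 17 on that list, 5 were higher (29.4%, with 14.7% of all genes) and 2 lower (11.8%, with 16.02%) at 15 µg/L. The median was 0.09, and 9 were higher and 4 lower at 400 µg/L. ISN1, an inosine monophosphate nucleotidase, had 143 and 149 CPM in sir2Δ and 87.3 and 88.3 CPM in WT, a fold change of 0.73 ± 0.07. PNP1, a purine nucleoside phosphorylase that also acts on nicotinamide riboside in S. cerevisiae, was higher by 0.50, close to its 0.47 at 400 µg/L. YIA6, a mitochondrial NAD+ carrier, had 51.2 and 51.8 CPM in sir2Δ and 34.5 and 41.4 CPM in WT. It was higher in sir2Δ at 15 µg/L (0.44 ± 0.09) and lower at 400 µg/L (-0.40 ± 0.09), and this change passed the test (edgeR adjusted p of the interaction = 1.9e-04). PNC1, the nicotinamidase, was lower, at -0.30, a call lost without WT library 7 or sir2Δ library 8 (adjusted p = 0.0599 and 0.131). BNA3, the 1 measured gene of the de novo list and a kynurenine aminotransferase, was higher by 0.57 ± 0.07.

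**Figure D2:**
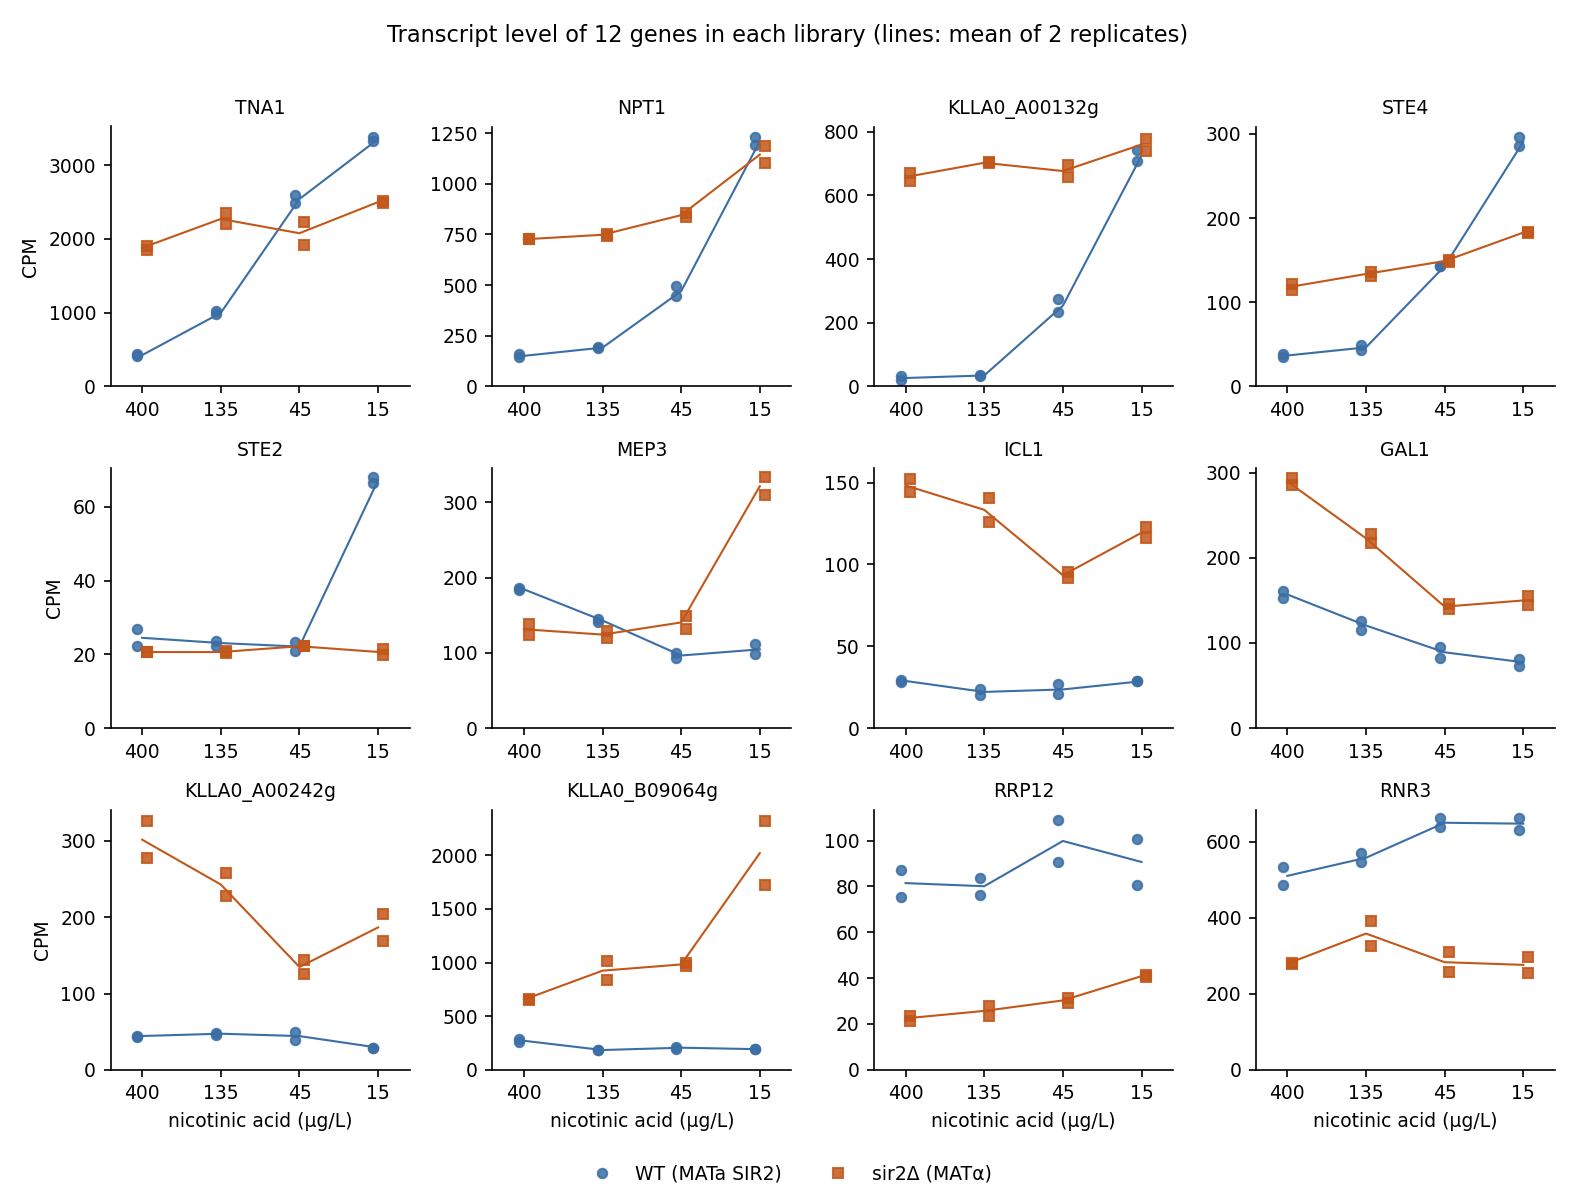
Transcript level in CPM (vertical axes, from 0) of 12 genes at 400, 135, 45 and 15 µg/L nicotinic acid (horizontal axes, equally spaced), with a point for each replicate and lines through the means of 2. At 15 µg/L the strains meet for NPT1 and KLLA0_A00132g, have crossed for TNA1, STE4 and MEP3, separate for STE2, and stay apart for ICL1, GAL1, KLLA0_A00242g, KLLA0_B09064g, RRP12 and RNR3.

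At the chromosome ends most of the difference seen with ample vitamin was gone. Of the 60 genes that are among the 5 nearest to any of the 12 ends, 22 were higher in sir2Δ (36.7%, with 14.7% of all genes) and 0 lower at 15 µg/L, with a median of 0.12 where all genes had 0.00. With ample vitamin 49 were higher and 3 lower with a median of 1.86, and the interaction was negative for 43 and positive for 1 (47 and 2 with library 1R alone). The medians over members of the ratio of mean CPM at 400, 135, 45 and 15 µg/L were 1.86, 1.11, 0.65 and 0.12. The median level of these genes was 76.2 CPM in WT and 83.8 CPM in sir2Δ at 15 µg/L, and 23.2 and 89.2 CPM at 400 µg/L. The count of 22 was 10 without WT library 8 and 12 without sir2Δ library 7, or with WT libraries 1 and 1R as separate columns. Against the 0 lower by edgeR, 2 had an unadjusted p under 0.05, and 1 was lower by DESeq2, 1 with library 1R alone, 1 among protein-coding nuclear genes only, 3 in a fit of the 4 libraries alone and 9 in that fit with the library number as a replicate block.

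Single terminal genes show how close the strains came. KLLA0_A00132g, the second gene of its end, had 779 and 741 CPM in sir2Δ and 743 and 707 CPM in WT. The replicates overlapped between strains, with a fold change of 0.07 ± 0.12 (edgeR adjusted p = 0.726) against 4.63 ± 0.15 at 400 µg/L. KLLA0_B00143g (0.10), KLLA0_F00154g (0.12) and KLLA0_D00143g (0.11), each first or second from an end, did not pass the test either, and their interactions were -4.33, -4.30 and -4.27. These 3 had nearly equal levels in every group and may share reads. In WT KLLA0_A00132g went from 31.4 and 21.3 CPM at 400 µg/L to the values above, while in sir2Δ it had 669 and 646 CPM at 400 µg/L. Of the 60 genes 43 narrowed, and 5 were called at both levels without a called change. Among the called terminal genes with the largest fold changes at 15 µg/L, KLLA0_E25147g was higher by 0.88 ± 0.07 and KLLA0_C19547g by 0.91 ± 0.17. KLLA0_B14949g had only 94 reads in sir2Δ and 6 in WT, 16.7 times as much after scaling (exact 95% interval 7.37 to 46.5, counting error only).

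Away from the outermost genes, the share of higher calls at 15 µg/L was smaller, and lower calls appeared. All genes had 14.7% higher and 16.02% lower. Among ranks 6 to 15 from an end 24 of 118 genes were higher (20.3%) and 22 lower (18.6%), and among ranks 16 to 30 21 of 179 were higher (11.7%) and 39 lower (21.8%). At 400 µg/L ranks 6 to 15 had 61 higher and 13 lower, and the interaction was negative for 43 and positive for 1 (51 and 2 with library 1R alone). Ranks 16 to 30 had 45 higher and 40 lower at 400 µg/L, with 29 negative and 14 positive interactions. KLLA0_A00242g, the eighth gene from its end, showed no such narrowing. It had 169 and 204 CPM in sir2Δ and 28.9 and 29.2 CPM in WT, a fold change of 2.68 ± 0.13, against 2.77 ± 0.13 at 400 µg/L, and the interaction of -0.08 ± 0.17 did not pass the test (edgeR adjusted p = 0.797). KLLA0_E24443g, at rank 28, was likewise higher at both levels (1.71 ± 0.29 and 1.80 ± 0.27), and KLLA0_B14498g, at rank 19, was lower at 15 µg/L alone (-1.22 ± 0.14 and 0.00 ± 0.14, with an interaction of -1.22 ± 0.20). The 15 genes nearest to an end counted 46 higher of 178, the nearest 8 counted 32 of 96, and the nearest 30 counted 67 of 357. Without WT library 8 the 46 became 25, the 32 became 16 and the 67 became 41, without WT library 7 or 8 the 24 became 15, without WT library 7 the 32 became 21, and without sir2Δ library 7 the 46 became 28 and the 32 became 17.

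**Figure D3:**
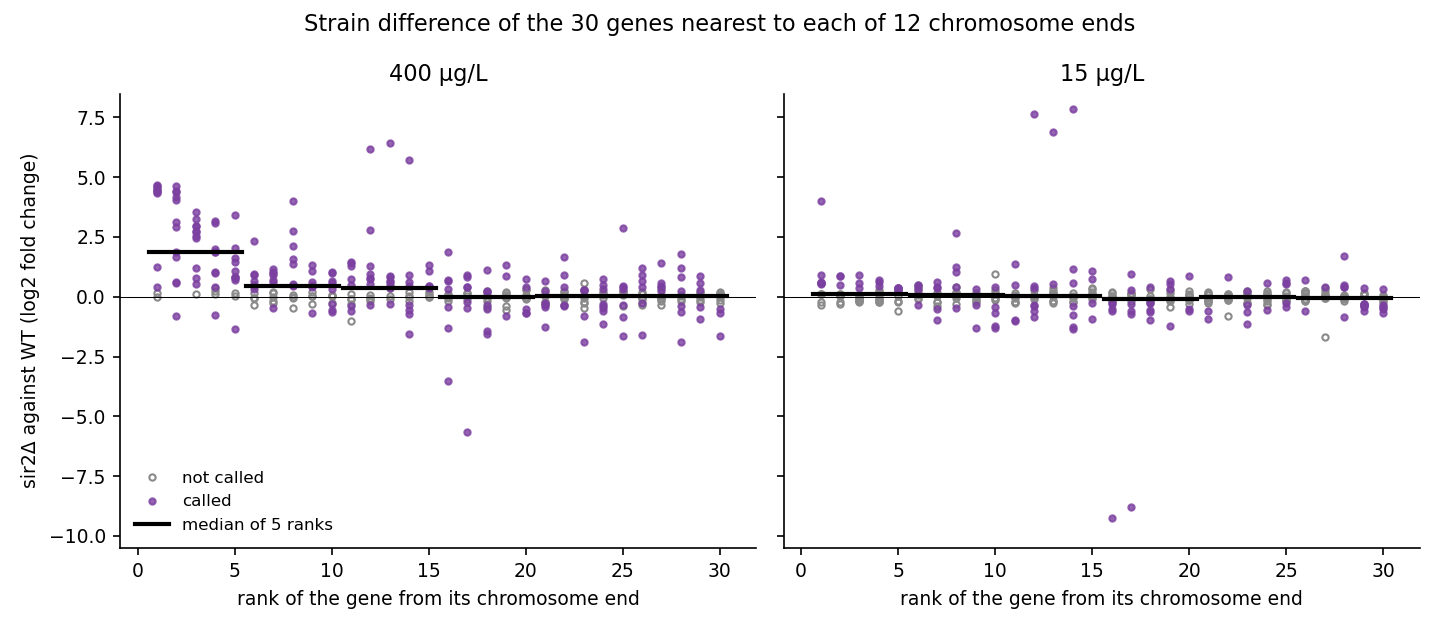
Log2 fold change of sir2Δ over WT (vertical axis) against the rank of a gene from its chromosome end (horizontal axis) for the 30 genes nearest to each of 12 ends, at 400 µg/L (left) and 15 µg/L (right), with filled points for called genes and bars at the median of 5 ranks. The raised medians of the outer ranks, 1.86 and 0.44 at 400 µg/L, are 0.12 and 0.07 at 15 µg/L. In the right panel the α genes lie near 7 and some genes near -9. Among the latter, KLLA0_B14575g had an interaction of -5.73, so its difference was wider at 15 than at 400 µg/L.

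Most of the other large differences lay away from the chromosome ends. KLLA0_B09064g had the highest level among the 12 genes with the largest positive fold change. It had 1725 and 2317 CPM in sir2Δ and 191 and 194 CPM in WT, a fold change of 3.39 ± 0.13 that was larger than the 1.27 ± 0.12 at 400 µg/L (interaction 2.12 ± 0.17, edgeR adjusted p = 1.7e-07). In WT its 8 columns at all levels lay between 183 and 283 CPM, and in sir2Δ it had 661 and 648 CPM at 400 µg/L. KLLA0_F24596g had 82.6 and 72.5 CPM in sir2Δ and 9.36 and 8.11 CPM in WT, a fold change of 3.15 ± 0.16 against 4.66 ± 0.18 at 400 µg/L. KLLA0_A05687g (3.62), KLLA0_C17226g (2.78), KLLA0_D13288g (2.37) and KLLA0_B10219g (2.25) were also among the 12 largest, and all 4 were higher still at 400 µg/L, by 5.52, 5.28, 5.14 and 3.83. The reference table gives these genes no symbol. AFB1, which in S. cerevisiae encodes a barrier to a-factor made by α cells, had 30.5 and 28.4 CPM in sir2Δ and 5.54 and 4.00 CPM in WT, a fold change of 2.63 ± 0.17 (edgeR adjusted p = 1.8e-08).

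On the lower side, KLLA0_C16225g had 72.2 and 93.3 CPM in sir2Δ and 341 and 383 CPM in WT, a fold change of -2.13 ± 0.14. KLLA0_F01595g had 377 and 335 CPM in sir2Δ and 1445 and 1252 CPM in WT (-1.92 ± 0.14), and KLLA0_D02442g was lower, at -1.49 ± 0.10. All 3 were lower at 400 µg/L too, at -1.55, -0.90 and -0.86. The others among the 12 largest negative fold changes were STE2, described next, and 3 genes of structural RNA. These were KLLA0_D17809r and KLLA0_D17935r (ribosomal RNA, -1.80 and -1.60) and KLLA0_B06996r (transfer RNA, -1.74). The RNA was poly(A)-selected, and the origin of their reads was not tested.

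Genes of a cells were mostly lower in sir2Δ at 15 µg/L, which they had not been at 400 µg/L. STE2, the receptor for α-factor on a cells, had 21.3 and 19.9 CPM in sir2Δ and 66.4 and 68.0 CPM in WT, a fold change of -1.70 ± 0.11 (edgeR adjusted p = 1.4e-08). Its -0.24 ± 0.11 at 400 µg/L did not pass the test, and the interaction of -1.46 ± 0.15 did (adjusted p = 3.3e-06). AXL1, an endoprotease of a-factor maturation, had 19.8 and 22.7 CPM in sir2Δ and 38.9 and 34.8 CPM in WT (-0.79 ± 0.12), and STE6, the a-factor exporter, had 55.9 and 56.6 CPM in sir2Δ and 96.9 and 86.2 CPM in WT (-0.70 ± 0.10). BAR1, the protease that degrades α-factor, was lower, at -0.43 ± 0.11, a call lost without sir2Δ library 7 (edgeR adjusted p = 0.0525). AGA2, an a-agglutinin subunit, stood against these, with 15.5 and 16.9 CPM in sir2Δ and 7.22 and 5.95 CPM in WT and a fold change of 1.30 ± 0.16. Of the 6 a-specific genes 4 were lower (66.7%, with 16.02% of all genes) and 1 higher (16.7%, with 14.7%) at 15 µg/L. At 400 µg/L 1 was lower and 3 higher (2 and 3 with library 1R alone), with 22.3% and 22.5% of all genes. The interaction was negative for 5 (4 with library 1R alone), with 9.71% of all genes. The fold change of ASG7, -0.31 ± 0.19, missed the threshold.

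The α-specific list had 4 genes, of which the called ones were HMLALPHA1 and HMLALPHA2, used above to check the labels. STE3, the receptor for a-factor, had 77.1 and 75.9 CPM in sir2Δ and 72.0 and 64.2 CPM in WT and a fold change of 0.17 ± 0.09 (edgeR adjusted p = 0.192), and the α-agglutinin SAG1 had -0.11 ± 0.12 (adjusted p = 0.524). Neither of these genes passed the test at this level.

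In the mating pathway list 2 of 35 genes were higher (5.71%, with 14.7% of all genes) and 6 lower (17.1%, near the 16.02% of all genes). At 400 µg/L 12 were higher (34.3%, with 22.5% of all genes) and 4 lower (11.4%, with 22.3%). The 2 became 1 without WT library 8 or either sir2Δ library. The subunits of the pheromone-receptor G protein had the most negative interactions of the list. STE4, the β subunit, had 182 and 183 CPM in sir2Δ and 296 and 285 CPM in WT, a fold change of -0.67 ± 0.08 in place of 1.68 ± 0.08 at 400 µg/L (interaction -2.35 ± 0.11, edgeR adjusted p = 3.1e-10). GPA1, the α subunit, had -0.29 ± 0.11 in place of 2.39 ± 0.12 and did not pass the test at 15 µg/L (adjusted p = 0.0515, and 0.00833 without WT library 7). STE18, the γ subunit, was higher by 0.59 ± 0.18 in place of 2.95 ± 0.20, with a call that was lost without any 1 of the 4 libraries (adjusted p from 0.0610 to 0.101). FAR1, which arrests the cell cycle in response to pheromone, had a fold change of -0.84 ± 0.09. GIC2, an effector of Cdc42, was lower as well, with 41.6 and 47.9 CPM in sir2Δ and 87.7 and 91.3 CPM in WT. With ample vitamin the fold changes of these 2 were 0.01 and -0.02. PRM1, a membrane protein of cell fusion, was higher by 0.70 ± 0.15. Mating type differs with the strain, and its part in these differences cannot be told apart from that of SIR2.

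Sporulation genes stayed higher in sir2Δ, in smaller numbers. In the list of middle and late sporulation, 14 of 38 genes were higher (36.8%, with 14.7% of all genes) and 3 lower, with a median of 0.20. With ample vitamin 24 were higher and 4 lower, with a median of 0.65, and the interaction was negative for 14. SPR3, a septin of sporulation, had 56.0 and 53.2 CPM in sir2Δ and 17.9 and 15.2 CPM in WT, a fold change of 1.73 ± 0.11 against 1.36 ± 0.10 at 400 µg/L. RRT12 (1.66 ± 0.20), SSP2 (1.58 ± 0.14) and SPS4 (1.52 ± 0.12), all needed for or induced in spore formation in S. cerevisiae, remained higher after larger differences at 400 µg/L, of 3.31, 3.32 and 2.77. Others came closer together or met. AMA1, an activator of the meiotic anaphase-promoting complex, had 18.6 and 21.3 CPM in sir2Δ and 19.9 and 17.5 CPM in WT (0.09 ± 0.15 in place of 3.17 ± 0.17), and RRT8 was higher by 0.50 ± 0.11 in place of 3.72 ± 0.12. Early meiosis genes had a share of higher calls below that of all genes, 3 of 26 (11.5%, with 14.7%), and 0 were lower (also 0 lower at an unadjusted p under 0.05 and by DESeq2). The higher ones included MUM2 (0.71 ± 0.11) and the synaptonemal complex gene ZIP1 (0.70 ± 0.11). In bulk RNA, more cells that express a gene and more RNA per cell cannot be told apart.

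The broadest difference that remained was in ribosome biogenesis, the making of ribosomal RNA and the assembly of subunits. Of 144 genes 125 were lower in sir2Δ (86.8%, with 16.02% of all genes) and 1 higher, with a median of -0.61 where all genes had 0.00. The counts at 400 µg/L were 141 lower and 0 higher, with a median of -1.42, and the interaction was positive for 117 and negative for 0 (116 and 0 with library 1R alone, and 129 and 0 at an unadjusted p under 0.05). RRP12, an export factor of ribosomal subunits, had 41.4 and 40.3 CPM in sir2Δ and 101 and 80.5 CPM in WT, a fold change of -1.15 ± 0.13. DIM1, the dimethylase of 18S rRNA, had 18.7 and 16.1 CPM in sir2Δ and 37.9 and 37.9 CPM in WT (-1.13 ± 0.12), NOC3, which moves pre-ribosomes through the nucleus, had 23.8 and 20.4 CPM in sir2Δ and 50.5 and 42.6 CPM in WT (-1.08 ± 0.13), and LCP5, of the small-subunit processome, had 12.3 and 13.0 CPM in sir2Δ and 27.5 and 24.0 CPM in WT (-1.03 ± 0.18). In all 4 the WT libraries were above both sir2Δ libraries. Leaving out single libraries left 102 to 115 lower genes. RRP45, an exosome subunit, was the 1 gene called higher (0.26 ± 0.09), and the call was lost in 7 of the alternatives, among them without WT library 7 or 8 or sir2Δ library 8 (edgeR adjusted p = 0.0607, 0.221 and 0.289).

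The narrowing of this list came with higher levels in sir2Δ. The median level of its members was 35.4 CPM in sir2Δ at 15 µg/L and 21.5 CPM at 400 µg/L, and 53.2 and 57.3 CPM in WT. The medians of the ratios at 400, 135, 45 and 15 µg/L were -1.41, -0.995, -1.19 and -0.61. NOP19, of this list, had an interaction of 1.80 ± 0.37 and no call at 15 µg/L (0.03). CGR1, a ribosomal RNA processing factor in S. cerevisiae that is not on the list, had an interaction of 1.85 ± 0.39 and also no call (-0.34). Structural proteins of the ribosome had few calls, in smaller shares than the 14.7% higher and 16.02% lower of all genes. Of 56 cytosolic ribosomal protein genes 0 were higher (also 0 at an unadjusted p under 0.05 and by DESeq2) and 5 lower, with a median of -0.06, led by RPS9B (-0.66) and RPL9B (-0.50). Of 74 mitochondrial ribosomal protein genes 3 were higher and 0 lower (2 at an unadjusted p under 0.05 and 0 by DESeq2). The 3 became 0 without WT library 7 or sir2Δ library 8 and 5 without WT library 8. The 5 lower cytosolic genes became 3 without WT library 7 and 2 without WT library 8 or sir2Δ library 8.

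Genes of DNA replication were lower and core histones higher in sir2Δ. In the list of histones and DNA replication 24 of 55 genes were lower at 15 µg/L (43.6%, with 16.02% of all genes). The 8 higher (14.5%) were near the 14.7% of all genes. The list had a median of -0.20, and 29 were lower and 5 higher at 400 µg/L (29 and 11 with library 1R alone). RNR3, a subunit of ribonucleotide reductase, had 255 and 297 CPM in sir2Δ and 663 and 631 CPM in WT, a fold change of -1.23 ± 0.11 (edgeR adjusted p = 5.1e-07). SWI4, a transcription factor of the G1/S transition, had 43.5 and 43.8 CPM in sir2Δ and 90.8 and 87.4 CPM in WT (-1.03 ± 0.11). CDC45, of the replicative helicase, and CDC6, which loads that helicase, were lower, at -0.96 ± 0.11 and -0.96 ± 0.08. The lower genes were called at 400 µg/L as well in 21 cases.

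The 8 higher genes of this list were the 8 core histone genes, a grouping made after their values were seen. HTB1 (histone H2B) had 679 and 869 CPM in sir2Δ and 394 and 463 CPM in WT (0.85 ± 0.15), HTA1 (H2A) had 1145 and 1195 CPM in sir2Δ and 782 and 779 CPM in WT (0.58 ± 0.08), and HHT1 (H3) had 1604 and 1514 CPM in sir2Δ and 1092 and 1067 CPM in WT (0.53 ± 0.09). The strains did not overlap for any of the 8, and their median was 0.56, against 0.24 with 2 called at 400 µg/L, or 0.38 with 7 called there with library 1R alone. The interaction passed for HTA1 and HTB2, so a larger difference at 15 µg/L is not shown for the other 6. That of HTB2 (0.46 ± 0.14, edgeR adjusted p = 0.0279) lost its call in 6 alternatives, among them without WT library 7 and without sir2Δ library 8 (adjusted p = 0.123 and 0.133). HHF1 and HHF2 (H4) lost their call without WT library 7 (edgeR adjusted p = 0.194 and 0.0679) and without sir2Δ library 8 (0.236 and 0.0828), and 5 of the 8 stayed called with WT libraries 1 and 1R as separate columns. 

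**Figure D4:**
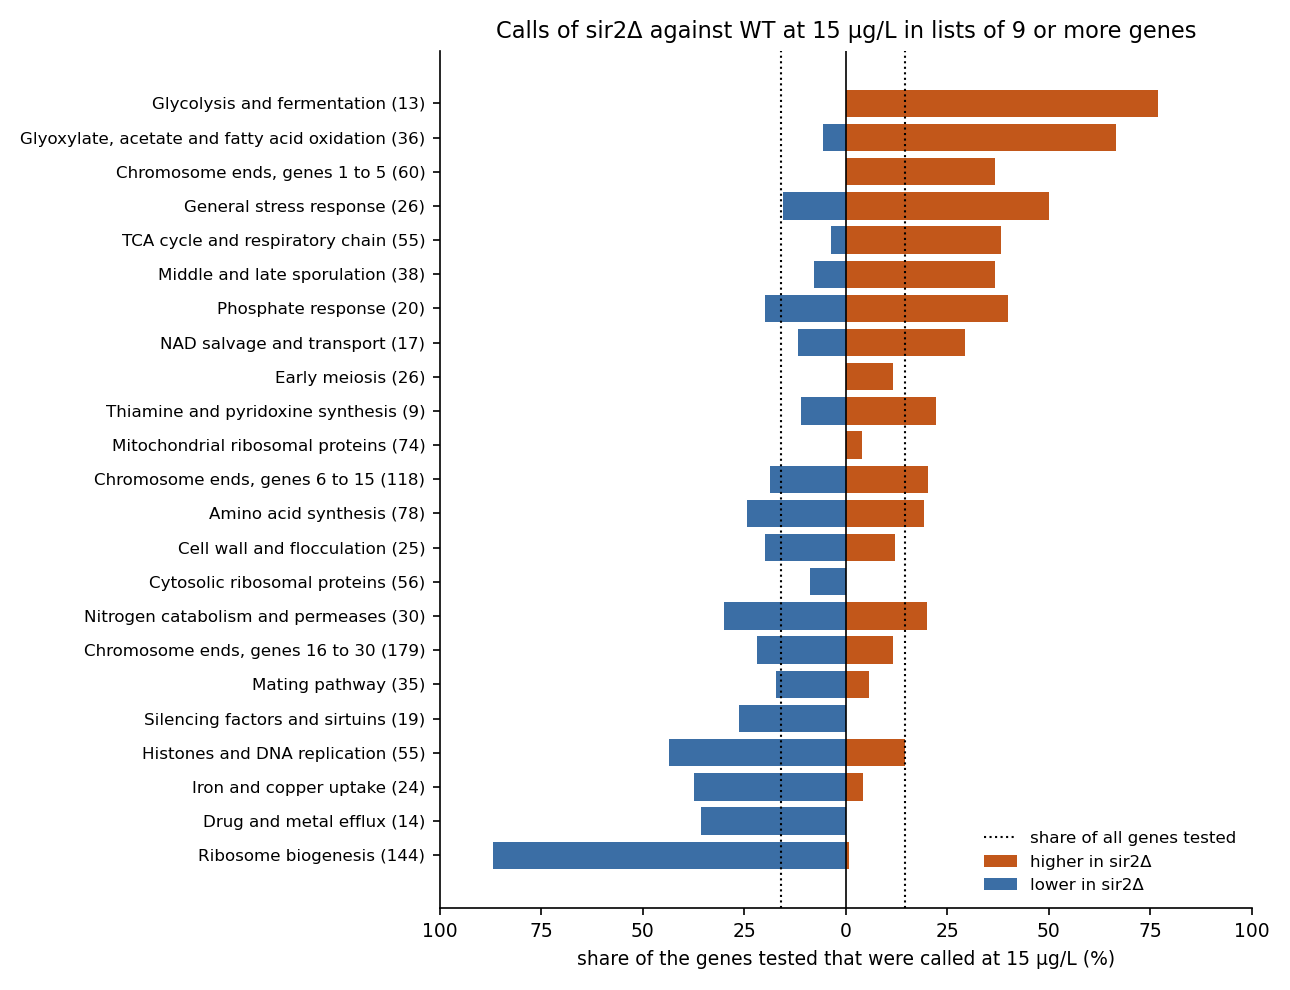
Share of the genes tested in each list (number in brackets) that were called higher (right) or lower (left) in sir2Δ at 15 µg/L, in percent, with dotted lines at the share of all 5224 genes, 14.7% higher and 16.02% lower. Ribosome biogenesis reaches 86.8% lower, and glycolysis with 76.9% and the glyoxylate, acetate and fatty acid list with 66.7% reach farthest on the higher side.

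Central carbon metabolism was higher in sir2Δ in several branches. Of 13 genes of glycolysis and fermentation 10 were higher (76.9%, with 14.7% of all genes) and 0 lower (also 0 at an unadjusted p under 0.05 and by DESeq2). The median was 0.53, and 11 were higher at 400 µg/L with a median of 0.68 (11 and 0.55 with library 1R alone, close to the median at 15 µg/L). GPM1, phosphoglycerate mutase, had 7849 and 7353 CPM in sir2Δ and 4467 and 3919.7 CPM in WT, a fold change of 0.86 ± 0.11. TPI1, triosephosphate isomerase, was higher by 0.80 ± 0.11, FBA1, aldolase, by 0.69 ± 0.10, and PFK2, of phosphofructokinase, by 0.67 ± 0.14. Of 5 genes of lactose and galactose use 3 were higher at 15 µg/L (60%, with 14.7% of all genes) and 5 at 400 µg/L (4 with library 1R alone). The 2 called at 400 µg/L only had no called interaction, and the lowest fold change of the list at 15 µg/L was 0.13. The 3 called at both levels were those of the Leloir pathway, which turns galactose into a glucose phosphate. They had similar differences at both levels. GAL1, galactokinase, had 155 and 145 CPM in sir2Δ and 81.2 and 73.3 CPM in WT (0.96 ± 0.09, and 0.88 ± 0.09 at 400 µg/L), GAL10 was higher by 0.95 ± 0.13 and GAL7 by 0.87 ± 0.10, and none of their interactions passed the test. Of the TCA cycle and respiratory chain list 21 of 55 genes were higher and 2 lower (1 without WT library 7 or 8 or sir2Δ library 7), with a median of 0.21. The 21 and the 2 were 38.2% and 3.64% of that list, with 14.7% and 16.02% of all genes. CIT3, a mitochondrial citrate or methylcitrate synthase in S. cerevisiae, had 16.8 and 26.8 CPM in sir2Δ and 5.69 and 3.32 CPM in WT (2.28 ± 0.28), and LSC2 and LSC1, the subunits of succinyl-CoA ligase, were higher by 0.98 and 0.66.

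Genes for using acetate and fatty acids were higher in sir2Δ at 15 µg/L. In that list 24 of 36 genes were higher (66.7%, with 14.7% of all genes) and 2 lower (1 without WT library 7 or sir2Δ library 8), with a median of 0.53, compared with 18 higher and 4 lower and a median of 0.34 at 400 µg/L (17, 8 and 0.20 with library 1R alone). The interaction was positive for 9 genes and negative for 4 (11 and 5 with library 1R alone). ICL1, isocitrate lyase of the glyoxylate cycle, had 116 and 123 CPM in sir2Δ and 28.7 and 28.6 CPM in WT, a fold change of 2.06 ± 0.11 (edgeR adjusted p = 2.4e-09), and its partner MLS1, malate synthase, had 101 and 109 CPM in sir2Δ and 46.9 and 55.3 CPM in WT (1.04 ± 0.10). Of the peroxisomal β-oxidation genes, POX1, acyl-CoA oxidase, had 111 and 153 CPM in sir2Δ and 41.8 and 45.9 CPM in WT (1.59 ± 0.14), FOX2 was higher by 1.55 ± 0.16, and PXA2, of the fatty acyl transporter, by 1.66 ± 0.18. At 400 µg/L these 3 had 1.92, 1.42 and 2.27, and none of their interactions was called.

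ACS1 and CRC1 were higher in sir2Δ with scarce vitamin and not with ample. ACS1, an acetyl-CoA synthetase, had 202 and 443 CPM in sir2Δ and 82.9 and 82.8 CPM in WT, a fold change of 1.96 ± 0.32, against -1.06 ± 0.32 at 400 µg/L (interaction 3.02 ± 0.45, edgeR adjusted p = 6.9e-04). The sir2Δ replicates were far apart, with both above WT. Without sir2Δ library 8 its fold change was 1.29, and in a fit of the 4 libraries alone it was not called (adjusted p = 0.109). CRC1, the mitochondrial carnitine carrier, had 68.6 and 124 CPM in sir2Δ and 32.0 and 30.8 CPM in WT, a fold change of 1.62 ± 0.27, against 0.13 ± 0.26 at 400 µg/L. Its interaction of 1.49 ± 0.37 lost its call without sir2Δ library 8 and without either WT replicate at 400 µg/L (adjusted p = 0.0510, 0.0779 and 0.0529).

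**Figure D5:**
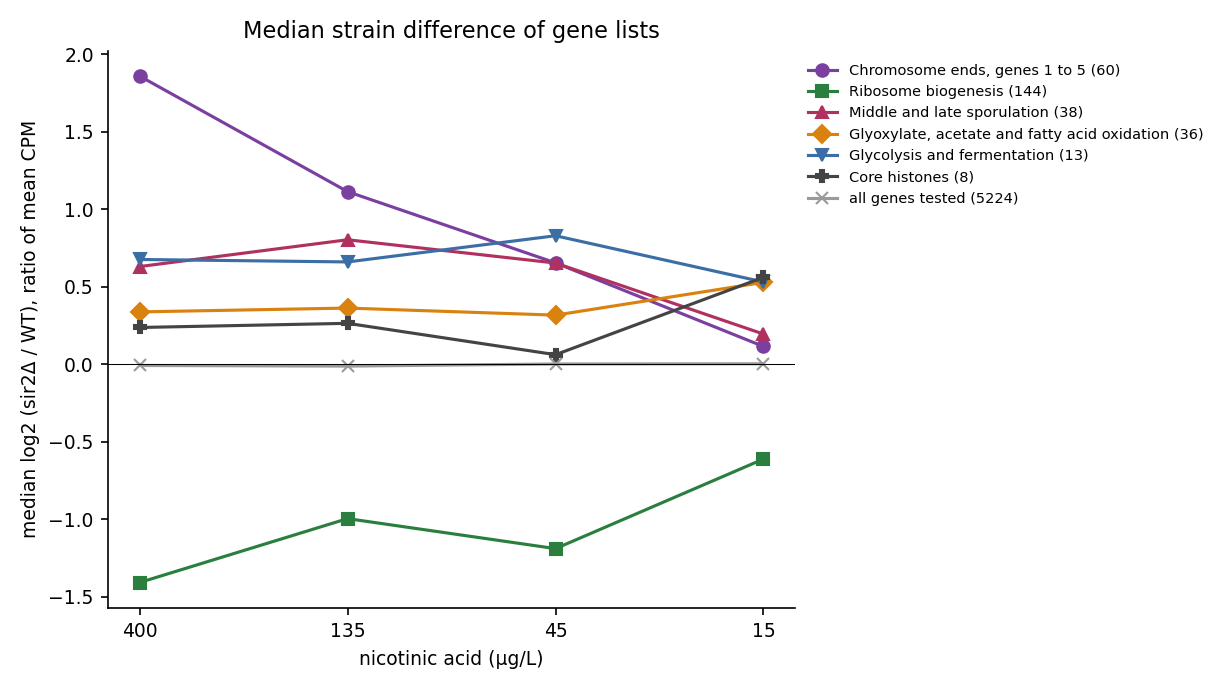
Median over the members of a list of the log2 ratio of mean CPM, sir2Δ over WT (vertical axis), at 400, 135, 45 and 15 µg/L nicotinic acid (horizontal axis, equally spaced), with the number of genes in brackets and no error bars. From 400 to 15 µg/L the chromosome ends go from 1.86 to 0.12 and ribosome biogenesis from -1.41 to -0.61, while the glyoxylate, acetate and fatty acid list goes from 0.34 to 0.53 and all genes stay within 0.02 of 0.

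Among the nitrogen genes, permeases crossed in both directions. Of this list 20% were higher at 15 µg/L (14.7% of all genes) and 30% lower (16.02% of all genes). MEP3, an ammonium permease, had 309.7 and 333 CPM in sir2Δ and 98.0 and 111 CPM in WT, a fold change of 1.62 ± 0.09 (edgeR adjusted p = 4.7e-09), against -0.49 ± 0.09 at 400 µg/L, with an interaction of 2.11 ± 0.13 (adjusted p = 4.8e-09). The urea transporter DUR3 crossed the other way, with a fold change of -0.68 ± 0.09 at 15 µg/L and 0.37 ± 0.09 at 400 µg/L. TAT2, a permease of aromatic amino acids, was lower, at -0.84 ± 0.16, but at -0.56 without WT library 7 and without a call in a fit of the 4 libraries alone (adjusted p = 0.0635). Of the 30 nitrogen genes 6 were higher and 9 lower, the latter 4 without WT library 7 and 5 without sir2Δ library 7. Of 78 amino acid synthesis genes 15 were higher (19.2%, with 14.7% of all genes) and 19 lower (24.4%, with 16.02% of all genes), the latter 9 without WT library 7 and 11 without sir2Δ library 8, in place of 30 higher and 12 lower at 400 µg/L. CPA1, of arginine synthesis, was lower, at -0.83 ± 0.07. GDH3, a glutamate dehydrogenase, was higher by 0.88 ± 0.10 and MET28, a regulator of sulfur genes, by 0.76 ± 0.10.

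Iron and copper uptake genes were lower in sir2Δ, 9 of 24 (37.5%, with 16.02% of all genes) with 1 higher (0 without WT library 7 or sir2Δ library 8), and 4 were lower and 8 higher at 400 µg/L (7 and 9 with library 1R alone). PUL3, a transporter of the iron-binding pigment pulcherrimin, had 209 and 225 CPM in sir2Δ and 542 and 522 CPM in WT, a fold change of -1.29 ± 0.09, larger than the -0.68 ± 0.09 at 400 µg/L (edgeR adjusted p of the interaction = 0.00195). FET3, a multicopper ferroxidase, had 295 and 287 CPM in sir2Δ and 508 and 484 CPM in WT (-0.77 ± 0.08), and the ferric reductase FRE1 (-0.52) and the copper transporter CTR1 (-0.50) were lower as well. Phosphate genes were mixed, with 8 of 20 higher (40%, with 14.7% of all genes) and 4 lower (20%, with 16.02%). PHO92, an RNA-binding protein, was higher by 0.93 ± 0.10 in place of 3.34 ± 0.12, and PHO89, a sodium-phosphate symporter, was lower, at -0.87 ± 0.08, with 52.3 and 54.3 CPM in sir2Δ and 102 and 93.1 CPM in WT. The 4 lower genes became 2 without WT library 7 or either sir2Δ library. Of 9 thiamine and pyridoxine genes 2 were higher, THI4 (0.47) and PDX3 (0.46), and TPN1 was lower (-0.36, adjusted p = 0.0514 without WT library 7). The 2 higher genes were 22.2% of this list and the 1 lower gene 11.1%, with 14.7% and 16.02% of all genes. The transcription factor gene THI2 and the transporter gene THI73, at 2.38 and 3.34 at 400 µg/L, did not pass the test at 15 µg/L (0.25 ± 0.11 and 0.51 ± 0.19). THI73 was called by DESeq2, in a fit of the 4 libraries alone and with library 1R alone (adjusted p = 0.0243, 0.0475 and 0.0411).

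Among genes of chromatin silencing the calls were all lower, 26.3% of the list with 16.02% of all genes. Of 19 silencing factors and sirtuins other than SIR2 itself, 5 were lower and 0 higher (also 0 at an unadjusted p under 0.05 and by DESeq2), and 3 were lower without any 1 of the 4 libraries. HST4, a sirtuin, had 20.9 and 20.7 CPM in sir2Δ and 32.5 and 37.6 CPM in WT (-0.75 ± 0.13), and RIF1, which binds telomeres, had 51.3 and 49.8 CPM in sir2Δ and 82.7 and 82.3 CPM in WT (-0.71 ± 0.08). Both were lower at 400 µg/L too (-0.46 and -0.67). In the general stress list 13 of 26 were higher and 4 lower, the former 7 without WT library 8 or sir2Δ library 7. The 13 and the 4 were 50% and 15.4% of the stress list, with 14.7% and 16.02% of all genes. CTA1, the peroxisomal catalase, was higher by 0.62 ± 0.09, and UGA1, of GABA breakdown, and the repressor XBP1 were lower, at -0.78 ± 0.08 and -0.73 ± 0.11. Of 25 cell wall genes 3 were higher and 5 lower, shares near those of all genes. The lower ones included the chitin transglycosylases UTR2 (203 and 199 CPM in sir2Δ and 392 and 427 CPM in WT, -1.03 ± 0.07) and CRH1 (-0.93 ± 0.10). The 5 became 3 without WT library 7 or sir2Δ library 8, and the 3 became 1 without WT library 8 or sir2Δ library 7. Of 14 drug and metal efflux genes 5 were lower (35.7%, with 16.02% of all genes) and 0 higher (1 at an unadjusted p under 0.05 and 1 by DESeq2). The most negative fold change was in PDR12, a weak-acid exporter (-0.95 ± 0.30). The call of PDR12 was lost without WT library 7 or either sir2Δ library (edgeR adjusted p = 0.285, 0.0538 and 0.160), with a fold change of -0.50 without WT library 7. STE6 and ZRT2, a zinc transporter (-0.54 ± 0.09), were lower too, and 3 of the list were lower without WT library 7 or either sir2Δ library. Of 5 hexose transport and sensing genes RGT1 was higher (0.61) and MIG1 lower (-0.38), and both calls were lost without sir2Δ library 8 (edgeR adjusted p = 0.0625 and 0.0588), that of RGT1 also without WT library 8 (0.0580).

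Genes called in opposite directions at the 2 levels numbered 71, all of them with a called interaction. Of these 60 were lower in sir2Δ at 15 µg/L and higher at 400 µg/L, and 11 went the other way. The 6 with the largest interactions were ACS1, TNA1, STE4, BAR1 and MEP3, described above, and KLLA0_B00517g, which had 52.4 and 47.6 CPM in sir2Δ and 61.0 and 60.6 CPM in WT. Its fold change of -0.28 ± 0.10, against 1.87 ± 0.11 at 400 µg/L, lost its call without any 1 of the 4 libraries, with an edgeR adjusted p of 0.269 without sir2Δ library 8. Among the 11 were also genes of protein folding, named after their values were seen. HSP82, the Hsp90 chaperone, had 0.46 ± 0.08 at 15 µg/L and -0.39 ± 0.07 at 400 µg/L, and SSA2, an Hsp70 chaperone, had 0.34 ± 0.11 and -0.54 ± 0.11. The call of SSA2 at 15 µg/L was lost without WT library 8 or sir2Δ library 7 (edgeR adjusted p = 0.279 and 0.300).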

How the data were processed

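RNA was poly(A)-selected and sequenced as paired 150 bp reads, per the labels' protocols. The authors deposited whole-number read counts for 5335 genes in 17 libraries. Per the submitters' processing notes, reads were handled with cutadapt, Bowtie2, SAMtools and featureCounts, with FastQC, MultiQC and DESeq2 also named. How strand and multiple matches were treated, and which build, annotation and versions were used, is not given in the sources used here, so near-identical, overlapping and antisense genes may share reads. The deposited normalized table was not used. The result for 1 gene is not reported here.

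The test was that of edgeR 4.0.16, run in R 4.3.3 (robust quasi-likelihood fit, filterByExpr at a minimum count of 10, TMM factors, prior count 0.125). The 111 genes removed left 5224. WT libraries 1 and 1R were summed, which left 16 columns, 8 groups and 8 residual degrees of freedom, with a common biological variation of 0.0857. Contrasts were sir2Δ against WT at 15 and at 400 µg/L and their difference. P-values were adjusted over all 5224 genes by Benjamini-Hochberg, and SE is given after ±. They measure the spread between 2 libraries per group. The procedure was tested on simulated data. Alternatives included DESeq2 1.42.0, other scalings, filters and left-out libraries.

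Names and gene order came from a table of assembly ASM251v1, which matched all 5335 identifiers and gave 4043 a symbol. It was used for no coordinates. Genes and the 25 lists, written from S. cerevisiae names, were chosen with earlier results of these data known, so lists are described by counts and medians, with no test. Named genes are label checks, the 12 largest differences in each direction with non-overlapping libraries and at least 5 CPM, up to 4 called members per list, all members of lists of up to 10, and the largest interactions. Further genes chosen by position or after their values were seen are the core histones, the neighbours of SIR2, the biotin genes, GPA1, STE18, MLS1, POX1, FOX2, AMA1, RRT8, PNC1, RRP45, HSP82 and SSA2. Intervals and limits cover counting error only, and the labels name no molecular identifiers.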

Additional observations from a re-analysis of the deposited data

Results flagged for a closer look

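The strain difference changed between 400 and 15 µg/L for 899 genes, by edgeR's test of the interaction, which is the log2 fold change at 15 µg/L minus that at 400 µg/L. At chromosome ends this change was -4.56 for KLLA0_A00132g, -4.33 for KLLA0_B00143g, -4.30 for KLLA0_F00154g and -4.27 for KLLA0_D00143g. Of the other negative changes, TNA1 had -2.57, STE4 -2.35 and BAR1 -2.33. KLLA0_B00517g had -2.15, and its call at 15 µg/L (-0.28) was lost without sir2Δ library 8 (adjusted p = 0.269). KLLA0_C03157g and KLLA0_B14575g had -6.31 and -5.73, fitted values that rest on 1 to 3 reads in each sir2Δ library and depend on the prior count.

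Positive changes were 3.02 for ACS1, 2.12 for KLLA0_B09064g, 2.11 for MEP3, 1.85 for CGR1 and 1.80 for NOP19. KLLA0_C00396g had 2.13, which rests on 13 reads in each WT library at 15 µg/L and was 0.48 without WT library 1 and its repeat at 400 µg/L (adjusted p = 0.665). All of these passed the test of the difference itself, and the test compares 2 replicates in each of 4 groups.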

How the results depend on the processing

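The counts of calls depended on single libraries and on how WT libraries 1 and 1R entered. Leaving out 1 replicate at a time gave 1041 to 1262 calls at 15 µg/L (481 to 587 higher and 539 to 675 lower), with 1011 to 1184 of the 1605 shared in the same direction, 1722 to 2244 at 400 µg/L (899 to 1161 and 823 to 1083), and 643 to 877 interactions (263 to 385 and 376 to 496). A lone library is then assumed to vary like the other groups. Libraries 1 and 1R as separate columns gave 976 calls at 15 µg/L (447 higher, 529 lower) and 570 interactions (243 positive, 327 negative), and upper-quartile factors gave 619 positive interactions. DESeq2 size factors, no filter, DESeq2's Wald test (1758 calls at 15 µg/L), protein-coding nuclear genes alone, the 4 libraries alone (1804) and library 1R alone (1797) kept each count within 1.5 times. No called fold change of a named gene reversed its direction under these alternatives. The library numbers paired the strains unevenly. Deviations of same-numbered libraries correlated at 0.274 and 0.513 at 15 and 45 µg/L, and at 0.00210 and -0.0857 at 135 and 400 µg/L. A replicate block by library number was therefore run as an alternative only. It gave 1890 calls at 15 µg/L, 2649 at 400 µg/L and 1159 interactions, and 2325 at 15 µg/L among the 4 libraries alone. Levels under 0.0931 CPM correspond to fewer than 3 reads.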

Other observations

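The neighbours of the deleted gene differed between the strains. On the chromosome the gene order of the reference table runs CLC1, TRS65, KLLA0_F14663g, RTG1 and RPT2. TRS65, a subunit of a vesicle-tethering complex, had 23.1 and 23.9 CPM in sir2Δ and 11.4 and 11.9 CPM in WT, a fold change of 1.01 ± 0.12. RTG1, a transcription factor of mitochondrial retrograde signalling, had 17.5 and 15.2 CPM in sir2Δ and 6.06 and 6.32 CPM in WT (1.40 ± 0.22, edgeR adjusted p = 1.8e-04). CLC1, clathrin light chain, was higher by 0.55 ± 0.11, and RPT2, a proteasome ATPase, by 0.38 ± 0.07. The first 3 were also higher at 400 µg/L (0.75, 1.19 and 0.53), and the third neighbours PEX35 and PTC1 were not called at either level. These genes were chosen by position, and whether reads of the edited locus are counted in them was not tested.

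Biotin genes near another chromosome end were lower in sir2Δ. BIO5, a biotin-precursor transporter, had 56.8 and 63.4 CPM in sir2Δ and 145 and 139 CPM in WT (-1.24 ± 0.09), BIO4, dethiobiotin synthetase, had 32.5 and 33.5 CPM in sir2Δ and 68.4 and 62.1 CPM in WT (-0.98 ± 0.11), and BIO3, an aminotransferase of the pathway, had 64.7 and 61.9 CPM in sir2Δ and 98.8 and 92.9 CPM in WT (-0.60 ± 0.09). They are the genes at ranks 10, 11 and 12 from an end of chromosome B, and were chosen after their values were seen. With ample vitamin they had -0.54, -0.58 and 0.06, and the interactions of BIO5 and BIO3 passed the test (edgeR adjusted p = 0.00129 and 0.00130).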
